A study of Oryctolagus cuniculus with 17 samples.

Results

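The genes described here are 9 genes that code for proteins of the contacts between epithelial cells, followed in the lungs of preterm rabbit pups kept in hyperoxia or normoxia. They are the claudin genes CLDN3, CLDN7 and CLDN18, the occludin gene OCLN, the tricellulin gene MARVELD2, the junctional adhesion molecule gene F11R, the zonula occludens 1 gene TJP1, the E-cadherin gene CDH1 and the adhesion protein gene EPCAM. They were chosen by the symbol of the human homologue that the count table gives for each entry, and where a symbol had several entries the one with the most counts was to be kept. All 9 symbols were present, each with a single entry, so the genes make up 9 of the 13827 entries of the table, and all 9 were among the 13142 entries with enough counts to be tested.

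New Zealand White rabbit pups, with no transgene or drug named, were delivered preterm by C-section at a gestational age of 28 days, term being 31 days. Pups breathed either 95% oxygen (groups HT3, HT5 and HT7) or 21% oxygen (groups NT3, NT5 and NT7) in incubators, were fed a milk replacer and were sampled on postnatal day 3, 5 or 7. RNA was sequenced from homogenised lung of 8 hyperoxia and 9 normoxia samples, which is 3 per group and 2 in HT5. The labels and the study's methods name the right lung, whereas its results name the left. All groups were preterm, so no group here shows lung at term. Nothing in the labels says which pups shared a litter, and the p-values measure the spread between these samples.

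Epithelial cells seal the air space from the tissue with tight junctions, in which claudins of neighbouring cells bind each other and set which ions and how much water pass between the cells. Occludin and tricellulin are relatives with a shared membrane domain, tricellulin lying where 3 cells meet, and the immunoglobulin-like protein of F11R adheres beside them. ZO-1, the product of TJP1, ties these proteins to actin inside the cell. E-cadherin holds cells together in the adherens junction below, and EPCAM is an adhesion protein that binds claudin-7 in the membrane. In the lung, claudin-18 is an abundant claudin of the alveolar epithelium, and claudin-3 is known from alveolar type 2 cells.

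The 17 samples held between 13123731 and 18111086 counts when each locus was counted once, and the lowest count of any of the 9 genes in any sample was 370, in HT7 for MARVELD2. Levels are given as CPM, the count divided by the scaled total of the tested entries of the sample. They are not corrected for gene length, so a level is compared between samples and not between genes. Changes are given as the log2 fold change (log2FC) of hyperoxia over normoxia on the same day, with the standard error (SE), and a gene was called where the Benjamini-Hochberg adjusted p-value of edgeR's quasi-likelihood test over all tested entries was under 0.05. Muscle transcripts stood apart in 2 samples, since 5 genes of heart and skeletal muscle summed to 301 CPM in HT3 replicate 2 and 282 CPM in HT5 replicate 1, against 38.1 CPM in HT3 replicate 3 and at most 11.5 CPM in the other samples. The counts of the 9 genes called on days 3 and 5 are therefore also given without these samples, with the values that moved.

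On day 7 all 9 genes differed between hyperoxia and normoxia, in opposite directions. CLDN7, CLDN3, EPCAM and CDH1 were higher in HT7, between 1.99-fold for CDH1 and 3.56-fold for CLDN7. OCLN, CLDN18, F11R, MARVELD2 and TJP1 were lower, between 1.37-fold for TJP1 and 2.27-fold for OCLN. On day 5 CLDN7 and EPCAM were already higher and OCLN lower, and on day 3 none of the 9 was called. The 9 of 9 called on day 7 stand against 47.4% of all tested entries, with 4 higher against 23.7% and 5 lower against 23.7%. In all 9 genes the 3 HT7 samples lay wholly on one side of the 3 NT7 samples, which was so for 54.5% of the tested entries. The 9 calls of day 7 were kept in DESeq2, which called 6394 of the 13142 tested entries. They were also kept when any 1 sample of HT7 or NT7 was left out (6 fits), beside 5181 to 6611 entries called.

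**Figure D1:**
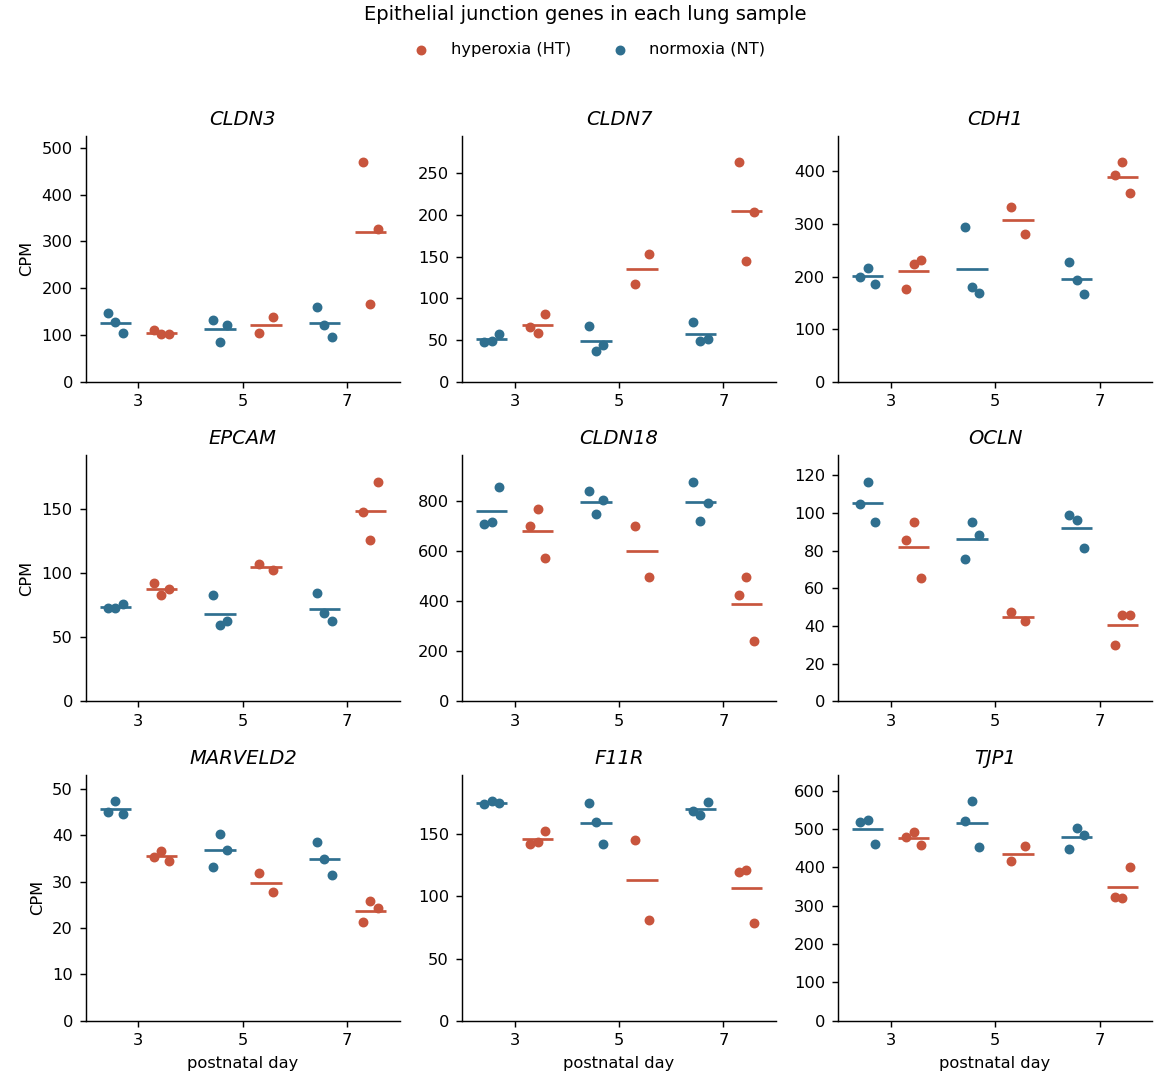
Level of each gene in CPM (vertical axes, from 0) by postnatal day, with 1 point per lung sample and a bar for the group mean, hyperoxia in red and normoxia in blue. In the panels of CLDN3, CLDN7, CDH1 and EPCAM the red points of day 7 lie above all blue points of that day, and in the other 5 panels they lie below them.

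CLDN7 had the largest change of the 9 genes on days 5 and 7. The table places it on chromosome 19 of OryCun2.0, from 11879822 to 11882892. In normoxia it stood at 47.1, 48.9 and 56.8 CPM on day 3, at 66.3, 36.3 and 44.0 CPM on day 5 and at 71.0, 49.2 and 51.6 CPM on day 7. In hyperoxia it was 65.1, 58.8 and 80.8 CPM on day 3, 118 and 153 CPM on day 5 and 264, 145 and 204 CPM on day 7. Every hyperoxia sample was thus above every normoxia sample of the same day. The log2FC was 0.42 (SE 0.24, edgeR adjusted p = 0.424) on day 3, 1.47 (SE 0.26, adjusted p = 0.00113) on day 5 and 1.83 (SE 0.24, adjusted p = 4.11e-05) on day 7. CLDN7 was upregulated on day 5 also in each fit that left out 1 sample, with log2FC between 1.25 and 1.75. The group means ran in the order HT7, HT5, HT3, NT7, NT3 and NT5, and of these neighbours only HT5 and HT3 did not overlap.

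CLDN3 moved later. In the table it lies on scaffold GL018765 from 818109 to 848626. Its 3 NT7 samples had 159, 121 and 94.6 CPM, and its 3 HT7 samples had 469.5, 166 and 327 CPM. Replicate 2 of HT7 was only just above the highest normoxia sample, whereas the other HT7 samples lay far above it. The log2FC on day 7 was 1.36 (SE 0.30, edgeR adjusted p = 0.00168), and it ran from 0.98 without HT7 replicate 1 to 1.68 without HT7 replicate 2. On day 5 the levels were 105 and 139 CPM in HT5 and 132, 85.4 and 121 CPM in NT5. On day 3 they were 109.5, 101 and 102 CPM in HT3 and 148, 127 and 104 CPM in NT3. The groups overlapped on both days, and the log2FC of 0.11 on day 5 (95% interval -0.58 to 0.81) and -0.27 on day 3 (95% interval -0.90 to 0.35) did not pass the test. HT7 alone stood apart in the order of the 6 group means, and the other 5 groups overlapped from one neighbour to the next.

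The entry of CLDN3 spans that of CLDN4, a further claudin gene on the opposite strand from 818814 to 819443, and overlaps ABHD11 on the same strand from 821828 to 869286. How the counting used strand and shared sequence is not given in the sources used here, so counts of these 3 genes may not be fully separate. The mean count of CLDN3 was 5755 in HT7 and 1879 in NT7, a difference of 3876 counts. The difference was 588 counts for CLDN4 and 361 counts for ABHD11, which are the counts given to those entries and set no limit on reads of these genes counted under CLDN3. CLDN4 was itself higher on day 7 (log2FC 2.19, SE 0.35, edgeR adjusted p = 0.000157), as was ABHD11 (log2FC 1.30, SE 0.15, adjusted p = 1.29e-05).

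CLDN18, on chromosome 14 from 31671229 to 31707265, fell on day 7. Its levels were 424, 496 and 239.9 CPM in HT7 and 878, 721 and 791 CPM in NT7, so the highest HT7 sample was below the lowest NT7 sample. The log2FC was -1.04 (SE 0.21, edgeR adjusted p = 0.00104). On day 5 it had 701 and 498 CPM in HT5 and 840.2, 746 and 805 CPM in NT5, so both hyperoxia samples were the lowest. This difference did not pass the test (log2FC -0.41, SE 0.24, adjusted p = 0.200). It was -0.68 without HT5 replicate 1, the sample with muscle transcripts, and -0.20 without HT5 replicate 2, and passed in neither case. On day 3 the groups overlapped, with 702, 767 and 573 CPM in HT3 and 708, 717 and 858 CPM in NT3 (log2FC -0.16, SE 0.21).

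Since CLDN18 fell and the other claudins of the 9 rose, the make-up of their summed counts moved as well. This share was added after the values had been seen and has no test, and since longer transcripts give more counts, only its change between samples is read. CLDN18 held 81.0% ± 2.98 (SD, n = 3) of the counts of CLDN3, CLDN7 and CLDN18 in NT3, 83.3% ± 2.55 (n = 3) in NT5 and 81.5% ± 2.63 (n = 3) in NT7. In hyperoxia it held 79.5% ± 3.51 (n = 3) on day 3, 69.5% ± 9.08 (n = 2) on day 5 and 43.1% ± 16.2 (n = 3) on day 7. Within HT7 the share was 36.7%, 61.5% and 31.1% in replicates 1, 2 and 3, so that all 3 lay below every normoxia sample, whose lowest share was 78.4%. The share of CLDN7 went from 5.81% ± 0.52 in NT7 to 22.4% ± 4.23 in HT7 (SD, n = 3 each), and that of CLDN3 from 12.7% ± 2.27 to 34.5% ± 12.2.

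**Figure D2:**
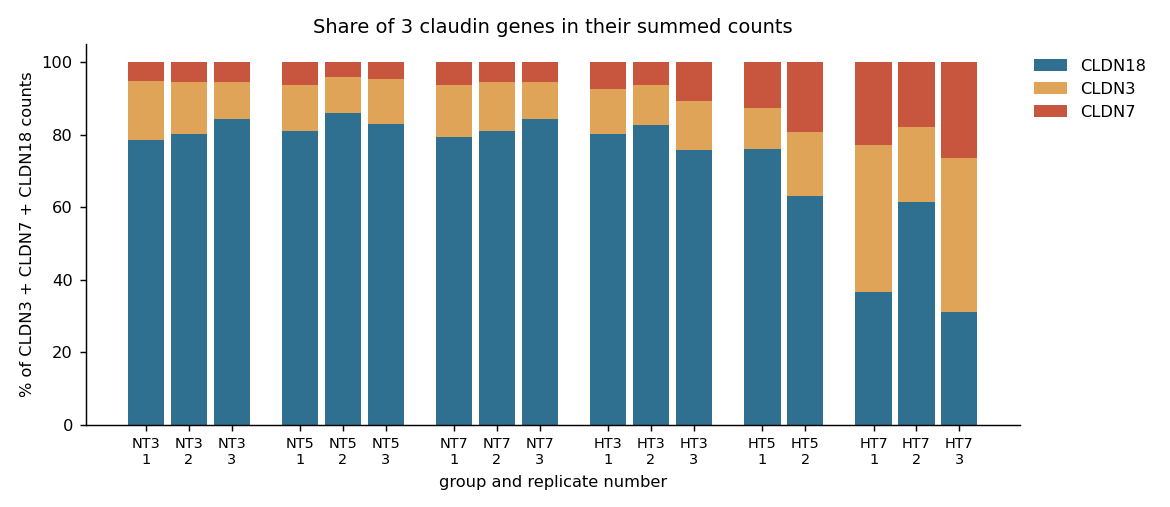
Share of CLDN18, CLDN3 and CLDN7 in their summed counts (vertical axis, %), with 1 bar per lung sample, grouped by condition and day. The bars of the 9 normoxia samples and of HT3 are mostly CLDN18, and in HT7 the CLDN18 part is between 31.1% and 61.5%.

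Of the MARVEL proteins, OCLN had the larger fall. It lies on chromosome 11 from 85679008 to 85719811. Its levels in normoxia were 105, 117 and 95.1 CPM on day 3, 75.7, 95.0 and 88.1 CPM on day 5 and 98.8, 96.2 and 81.5 CPM on day 7. In hyperoxia they were 85.5, 95.4 and 65.4 CPM on day 3, 47.4 and 42.4 CPM on day 5 and 29.8, 46.0 and 45.9 CPM on day 7. The groups overlapped on day 3, and the hyperoxia samples were all below the normoxia samples on days 5 and 7. The log2FC was -0.36 (SE 0.17, edgeR adjusted p = 0.327) on day 3, -0.94 (SE 0.20, adjusted p = 0.00285) on day 5 and -1.18 (SE 0.17, adjusted p = 8.47e-05) on day 7. HT5 and HT7 overlapped each other, and both lay below HT3.

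MARVELD2 lies on the same chromosome from 85587237 to 85615562, 63446 bp from OCLN with no other table entry between them. Its levels were 21.3, 25.8 and 24.2 CPM in HT7 and 38.5, 34.9 and 31.5 CPM in NT7, and the log2FC was -0.56 (SE 0.11, edgeR adjusted p = 0.00099). It was also the gene nearest to a call on day 3, at 35.3, 36.7 and 34.4 CPM in HT3 and 45.1, 47.4 and 44.6 CPM in NT3. These groups were each tight and did not overlap, with a log2FC of -0.37 (SE 0.11). The adjusted p-value was 0.133 in edgeR and 0.0494 in DESeq2, so the day 3 difference passed in only 1 of the tools. On day 5 the values were 31.8 and 27.7 CPM in HT5 and 33.3, 40.2 and 36.9 CPM in NT5 (log2FC -0.31, SE 0.13, edgeR adjusted p = 0.0767). Unlike the other 8 genes, MARVELD2 was lower in each of the NT7 samples than in each of the NT3 samples, by a log2FC of -0.39 (SE 0.11) that did not pass after adjustment (edgeR adjusted p = 0.539).

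F11R, on chromosome 13 from 31957769 to 31982737, was 119.5, 121 and 78.6 CPM in HT7 and 169, 165 and 176 CPM in NT7. The 3 NT7 samples were close together and all above the HT7 samples, with a log2FC of -0.67 (SE 0.18, edgeR adjusted p = 0.00734). On day 3 the HT3 samples had 142, 144 and 152 CPM, all below the 175, 177 and 175 CPM of NT3, and the difference did not pass the test (log2FC -0.26, SE 0.18, adjusted p = 0.521). The HT5 samples disagreed, at 145 and 80.9 CPM against 175, 159.6 and 142 CPM in NT5. The log2FC on day 5 was -0.49 (SE 0.21, adjusted p = 0.0817), and without HT5 replicate 1, the sample with muscle transcripts, it was -0.97 (adjusted p = 0.00288). Without HT5 replicate 2 it was -0.15.

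TJP1 had the smallest change of the 9 on day 7. It lies on chromosome 17 from 84017082 to 84260995 on the minus strand. The levels were 324, 319.7 and 401 CPM in HT7 and 448, 503 and 484 CPM in NT7, which do not overlap, and the log2FC was -0.46 (SE 0.11, edgeR adjusted p = 0.00353). On day 5 HT5 had 416 and 456 CPM and NT5 had 521, 573 and 453 CPM (log2FC -0.24, adjusted p = 0.150). This value ran from -0.33 without NT5 replicate 3 to -0.15 without NT5 replicate 2. On day 3 HT3 had 480.0, 492 and 459.6 CPM and NT3 had 518, 524 and 461 CPM (log2FC -0.07, adjusted p = 0.814). The groups overlapped on both of these days.

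CDH1, on chromosome 5 from 24238932 to 24304692, rose on day 7. It had 393, 418 and 358 CPM in HT7 and 227, 193 and 167 CPM in NT7, a log2FC of 0.99 (SE 0.19, edgeR adjusted p = 0.000566). HT7 was the tightest group of CDH1 in relative terms after NT3, with a coefficient of variation of 7.66% against 7.62%. On day 5 the values were 333 and 281 CPM in HT5 and 294, 181 and 168 CPM in NT5, so that NT5 replicate 1 lay within the hyperoxia range. The log2FC was 0.52 (SE 0.20, adjusted p = 0.0660), and it ran from 0.37 without NT5 replicate 3 to 0.82 without NT5 replicate 1 (adjusted p = 0.00289). Without HT5 replicate 1, the sample with muscle transcripts, it was 0.39 (adjusted p = 0.263). DESeq2 called CDH1 on day 5 on all samples. On day 3 the groups overlapped, at 177, 224 and 231 CPM in HT3 and 199, 216 and 185 CPM in NT3 (log2FC 0.07, SE 0.19).

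EPCAM, on chromosome 2 from 138958143 to 138973213 on the minus strand, was above normoxia in every hyperoxia sample of each day. It was 91.8, 82.3 and 87.1 CPM in HT3 and 72.9, 72.5 and 75.6 CPM in NT3. It was 107 and 102 CPM in HT5 and 83.1, 59.2 and 62.4 CPM in NT5. It was 147, 125 and 171 CPM in HT7 and 84.3, 69.0 and 62.2 CPM in NT7. The hyperoxia groups did not overlap each other either, so that HT7 lay above HT5 and HT5 above HT3, whereas the normoxia groups overlapped. The log2FC was 0.24 (SE 0.14, edgeR adjusted p = 0.447) on day 3, 0.62 (SE 0.16, adjusted p = 0.00912) on day 5 and 1.04 (SE 0.14, adjusted p = 5.54e-05) on day 7. EPCAM and CLDN7, whose products bind each other, were the upregulated genes of the 9 on day 5.

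**Figure D3:**
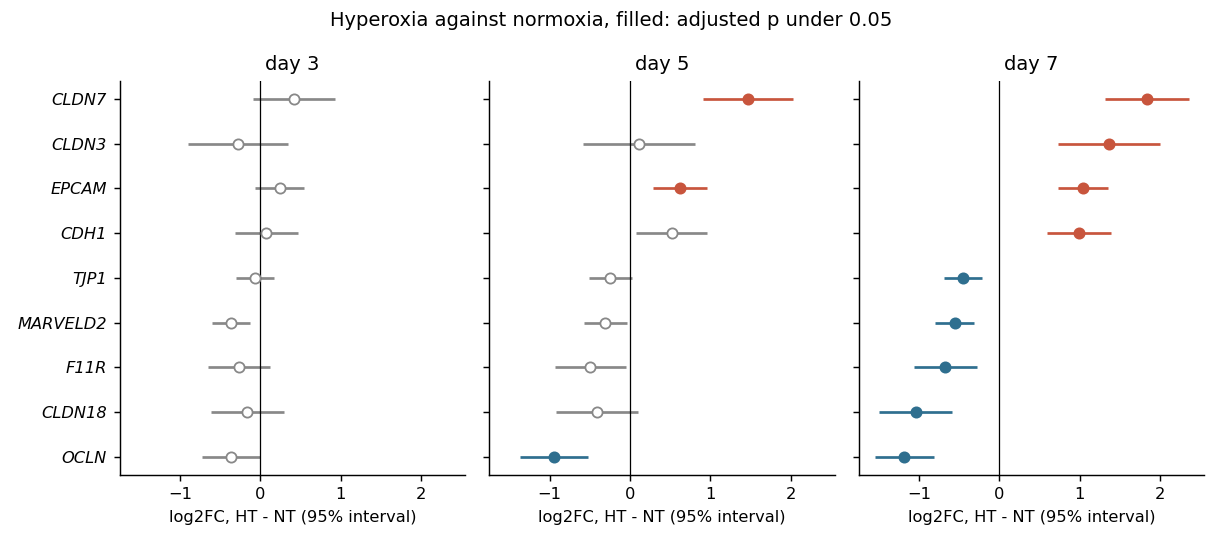
The log2FC of hyperoxia over normoxia (horizontal axes, with 95% intervals as lines) for each gene on days 3, 5 and 7, filled where the edgeR adjusted p-value was under 0.05, red for higher and blue for lower. On day 3 none of the 9 points is filled, on day 5 those of CLDN7, EPCAM and OCLN are, and on day 7 all 9 are.

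On day 5, 3 of the 9 genes were called, against 31.3% of all tested entries, with 2 higher against 15.9% and 1 lower against 15.4%. In all, 5 of the 9 had groups that did not overlap, against 55.7%. DESeq2 called 4, adding CDH1, beside 4595 of the 13142 tested entries, and 6 had an unadjusted p under 0.05, beside 5694. The count depended on single samples. Without HT5 replicate 2 only CLDN7 was called, while the log2FC stayed at -0.88 for OCLN (edgeR adjusted p = 0.0534) and 0.64 for EPCAM (adjusted p = 0.0613), and the calls over all tested entries went from 4115 to 1158. Without NT5 replicate 1, 5 were called, CDH1 and MARVELD2 being added, beside 3890 of 13127 tested entries. Without HT5 replicate 1, 4 were called, F11R being added, beside 4286 of 13404 tested entries. The log2FC was then -1.02 for OCLN, 0.59 for EPCAM, 1.65 for CLDN7, -0.41 for MARVELD2, -0.18 for TJP1 and 0.30 for CLDN3, of which the first 3 passed. With either HT5 sample left out, the remaining one was assumed to vary like the other groups.

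On day 3, 0 of the 9 were called by edgeR's quasi-likelihood test, against 1.03% of all tested entries. MARVELD2 was the 1 gene with an unadjusted p under 0.05, beside 2013 of all tested entries, and DESeq2 called it alone of the 9, beside 505. In 4 of the 9 the samples did not overlap, with CLDN7 and EPCAM above and F11R and MARVELD2 below, against 26.7% of the tested entries. Each of these 4 lay on the same side on day 7, when 54.5% of all tested entries did not overlap. The share of all tested entries that kept their side is not given here. Without HT3 replicate 2, the sample with muscle transcripts, the count on day 3 was again 0, beside 33 of 13110 tested entries, and the log2FC ran from -0.48 for OCLN to 0.52 for CLDN7. That of CLDN18 was -0.26 then, in place of -0.16. Without HT3 replicate 3 the log2FC was -0.05 for CLDN18 and -0.22 for OCLN.

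Whether the hyperoxia effect itself differed between days was tested as the effect on day 7 minus that on day 3. For 6 of the 9 genes the difference passed the test, against 20.5% of all tested entries, with 4 positive against 9.52% and 2 negative against 11%. CLDN3 had the largest, at 1.64 (SE 0.42, edgeR adjusted p = 0.0142), followed by CLDN7 at 1.41 (SE 0.34, adjusted p = 0.0108), CDH1 at 0.92 (SE 0.26, adjusted p = 0.0243) and EPCAM at 0.80 (SE 0.20, adjusted p = 0.0140). For CLDN18 and OCLN the difference was -0.88 (SE 0.30, adjusted p = 0.0489) and -0.82 (SE 0.24, adjusted p = 0.0275). The call of CLDN18 was lost with a replicate block (-0.94, edgeR adjusted p = 0.0573) and in 10 of the 12 fits that left out 1 sample, that of OCLN in 7 and that of CDH1 in 4 of these fits, whereas CLDN3, CLDN7 and EPCAM passed in all 12. Without HT3 replicate 2, the sample with muscle transcripts, the 4 positive differences passed, beside 1810 of 13110 tested entries, of which 40.8% were higher. Neither negative difference passed then, at -0.79 for CLDN18 (edgeR adjusted p = 0.110) and -0.70 for OCLN (adjusted p = 0.0732). TJP1 (-0.39), F11R (-0.41) and MARVELD2 (-0.19) did not pass. Of the 12 fits TJP1 passed in 1, without HT7 replicate 3 (-0.50, edgeR adjusted p = 0.0433). In these fits F11R ran from -0.51 to -0.23 and MARVELD2 from -0.26 to -0.11, and neither passed. For the effect on day 5 minus that on day 3, 0 of the 9 passed in edgeR, against 1.46% of all tested entries, 2 had an unadjusted p under 0.05 (CLDN7 and OCLN) beside 2664 of all tested entries, and DESeq2 called 0 beside 894.

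Day 7 was also compared with day 3 within each condition. Between HT7 and HT3, 8 of the 9 genes differed, against 44.3% of all tested entries, with CLDN3 (log2FC 1.62), CLDN7 (1.58), CDH1 (0.89) and EPCAM (0.76) higher in HT7. OCLN (log2FC -1.02), CLDN18 (-0.82), MARVELD2 (-0.58) and TJP1 (-0.45) were lower in HT7. The 4 higher stand against 22.3% and the 4 lower against 22% of all tested entries, and in all 9 genes HT7 and HT3 did not overlap, against 50.7%. F11R had a log2FC of -0.46 that did not pass the threshold (edgeR adjusted p = 0.0548). It was -0.27 without HT7 replicate 3 (adjusted p = 0.236), and DESeq2 called all 9, beside 6082 of the 13142 tested entries. Between NT7 and NT3, 0 of the 9 were called by edgeR, against 0% of all tested entries, and DESeq2 called 0 as well. At an unadjusted p under 0.05 there was 1, MARVELD2, beside 824 of all tested entries. It was also the gene of the 9 whose NT7 and NT3 samples did not overlap, against 17.4% of the tested entries. These comparisons share HT7 or NT7 with those above, so they are not independent of them.

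The study's rule for a differentially expressed gene (DEG) asks for a log2FC beyond 2 in either direction as well as an adjusted p-value under 0.01. By that rule 0 of the 9 genes were DEGs in edgeR on day 7, against 4.59% of all tested entries. On days 5 and 3 it was also 0 of the 9, against 1.58% and 0.0533%. The log2FC nearest to the threshold was that of CLDN7, at 1.83 in edgeR and also 1.83 in DESeq2. On day 7 the median log2FC of the 9 genes was -0.46, beside -0.01 over all tested entries. With 4 genes higher and 5 lower, this is the value of TJP1, the smallest fall, and it describes no shared shift. On day 5 the median was -0.24 beside -0.02, and on day 3 -0.16 beside 0.00.

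The other genes of the same junctions were described from lists of 64 genes, of which 47 were in the table and 46 could be tested. On day 7, 6 of the 46 were higher and 18 lower in hyperoxia, so that 52.2% were called, near the 47.4% of all tested entries. On day 5, 1 was higher and 11 were lower, or 26.1% beside 31.3% of all tested entries. On day 3 edgeR called 0 beside 1.03% of all tested entries, with 2 at an unadjusted p under 0.05 beside 2013 and 1 called by DESeq2 beside 505 of the 13142 tested entries. Their median log2FC was -0.06, -0.19 and -0.29 on days 3, 5 and 7, beside 0.00, -0.02 and -0.01 over all tested entries. The counts per list on day 7 that follow are to be read beside the 23.7% of all tested entries that were higher and the 23.7% that were lower on that day.

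Of the 10 other claudins tested, 3 were higher and 1 lower on day 7, beside 47.4% of all tested entries called in either direction. On day 5 edgeR called 0 of them, beside 31.3% of all tested entries. At an unadjusted p under 0.05 there were 3, beside 5694 of the 13142 tested entries, and DESeq2 called 1, beside 4595. CLDN4 had between 20.5 and 54.3 CPM in HT7 and between 6.42 and 10.7 CPM in NT7. CLDN6 (log2FC 1.59) and CLDN12 (0.68) were also higher, and CLDN10, which forms ion-selective pores, was lower (log2FC -2.98, SE 0.92). CLDN6 and CLDN10 rest on few counts, with 32 to 38 and 1 to 10 counts per HT7 sample. Among 5 other membrane proteins of the tight junction, JAM2 (log2FC -1.15) and JAM3 (-0.57), relatives of F11R that endothelial cells also use, were lower on day 7, and LSR, which marks the contacts where tricellulin lies, was higher (0.55).

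In the tight junction plaque, to which TJP1 belongs, 6 of 12 other genes were lower on day 7 and 1 was higher, beside 23.7% of all tested entries in each direction. The paracingulin gene CGNL1 fell from between 167 and 176 CPM in NT7 to between 24.9 and 60.1 CPM in HT7 (log2FC -2.20, SE 0.33, edgeR adjusted p = 0.000114). The scaffold genes MAGI3 (log2FC -1.78) and MAGI2 (-0.95) and the angiomotin gene AMOT (-1.35) were lower too. TJP1 itself had a log2FC of -0.46 on that day.

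Of the 12 other adherens junction genes, 7 were lower and 1 was higher on day 7, beside 23.7% of all tested entries in each direction. Catenins, which bind the cadherin tail or link it to actin, were among the lower ones, whereas CDH1 was higher. The plakoglobin gene JUP had a log2FC of -1.27 (SE 0.17, edgeR adjusted p = 3.93e-05), the p120 catenin gene CTNND1 of -0.91, the alpha-catenin gene CTNNA1 of -0.70 and the beta-catenin gene CTNNB1, named after its value was seen, of -0.39. NECTIN3 was lower too (-0.63). JUP, CTNND1, CTNNA1 and CTNNB1 were also lower on day 5. Of the 7 desmosome genes tested, the envoplakin gene EVPL (log2FC -1.54) and the periplakin gene PPL (-0.30) were lower on day 7, PPL sharing its locus and counts with 2 other entries. The plakophilin gene PKP2 was higher on day 5 (log2FC 1.08) and had a log2FC of 0.41 on day 7 that did not pass.

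EPCAM is known to be cut by matriptase, the product of ST14. ST14 rose on day 5 (log2FC 0.92) and on day 7 (1.32, SE 0.28, edgeR adjusted p = 0.00139), as did SPINT1, which codes for an inhibitor of matriptase (0.46 and 0.62). SPINT2, a related inhibitor, was higher on day 7 (0.61). PRSS8, the gene of the protease prostasin, was lower on day 5 (log2FC -0.83) and had -0.60 on day 7, which did not pass (adjusted p = 0.0514).

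Among 11 epithelial transcription factors or splicing factors, 3 were higher and 1 was lower on day 7, beside 47.4% of all tested entries called in either direction. GRHL3, a factor of epithelial barrier formation, had 54 and 123 counts in HT5 and 56 to 82 in HT7, against 3 to 17 in NT5 and 2 to 8 in NT7. Its log2FC was 3.24 (SE 0.55) on both days. ELF3 (log2FC 1.65 and 1.97 on days 5 and 7) and KLF5 (0.63 and 1.03) were higher on both days, and FOXA2 was lower on both (-0.54 each).

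SNAI1, which codes for a repressor of CDH1, was also higher in hyperoxia on day 7, as CDH1 was. It had 31 to 242 counts in HT7 against 3 to 10 in NT7 (log2FC 4.16, SE 0.77, edgeR adjusted p = 0.000491). ZEB1, a further repressor of CDH1, was lower (log2FC -0.95, SE 0.14). The cadherins of mesenchymal cells differed in direction, with N-cadherin (CDH2) higher (log2FC 1.69) and CDH11 lower (-0.95). In all, 2 of 6 genes of this list were higher and 3 lower on day 7. On day 3 edgeR called 0 genes of this list and of the list of transcription factors, beside 1.03% of all tested entries. An unadjusted p under 0.05 was found for 3 and 0 of them, beside 2013 entries, and DESeq2 called 0 and 0 beside 505 entries.

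**Figure D4:**
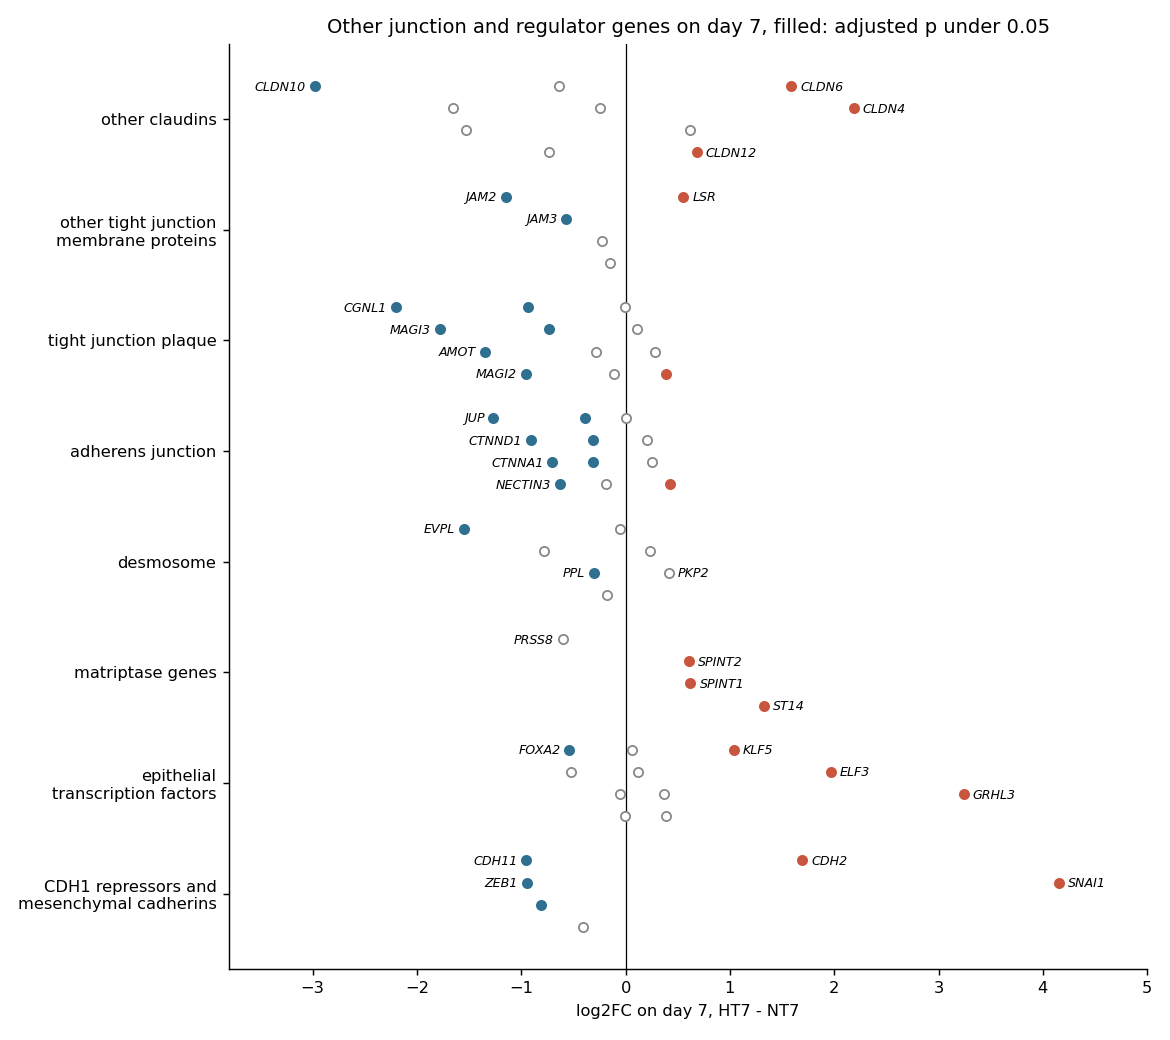
The log2FC of hyperoxia over normoxia on day 7 (horizontal axis) for the tested genes of 7 lists and the 4 genes named with matriptase (rows), filled where the edgeR adjusted p-value was under 0.05, red for higher and blue for lower. The rows of the plaque and the adherens junction hold 6 and 7 blue points and 1 red point each, and the row of the matriptase genes holds ST14, SPINT1 and SPINT2 in red and PRSS8 as an open point.

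The lung homogenate holds many cell types, and in such bulk samples fewer cells of a type and less RNA per cell cannot be told apart. Markers of epithelial cells were present in every sample, none of the 17 markers tested of keratins and alveolar cells being at 0. The keratins KRT7 and KRT18, 2 of 4 on the list, summed to 1241, 592 and 716 CPM in HT7 and to between 277 and 360 CPM in NT7. HT7 replicate 1, the sample with the most keratin, also had the most CLDN3 and CLDN7, and HT7 replicate 2 had the least of all of these within HT7. CDH1 and EPCAM did not follow that order, CDH1 being highest in replicate 2 and EPCAM in replicate 3. The 7 markers of alveolar type 1 cells, of 8, summed to between 1781 and 2375 CPM in HT7 and between 5729 and 7200 CPM in NT7, with 5 of the 7 lower. In NT7 most of this sum was AGER, whose locus and counts are shared by 2 entries. AGER had 3703 to 4760 CPM in NT7 and 669 to 1395 CPM in HT7. The sum of the 7 was also low in HT5, at 3519 and 2046 CPM in replicates 1 and 2 against 5060 to 6326 CPM in NT5. The 8 markers of alveolar type 2 cells, of 9, summed to 13607, 29750 and 16426 CPM in HT7 and to between 17426 and 23468 CPM in NT7. HT7 replicate 2, which also had the most CLDN18 and the least CLDN3 of HT7, lay above every NT7 sample, and the other HT7 samples lay below them. On day 5 the sums were 33368 CPM in HT5 replicate 1, the sample with muscle transcripts, and 12751 CPM in HT5 replicate 2. NT5 had 12705 to 25050 CPM. On day 3 the sums were 24967 to 28228 CPM in HT3, all above the 17609 to 20539 CPM of NT3. Of the 8 markers, 1 was higher on day 7 (SFTPA1, log2FC 1.17) and 2 were lower (SLC34A2, -1.51, and NAPSA, -1.49), all 3 named after their values were seen. The median log2FC of the 8 on day 7 was -0.37 beside -0.01 over all tested entries.

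Some of the lower genes are also used by endothelial cells. The 7 endothelial markers, of 10, summed to between 892 and 1272 CPM in HT7 and between 2271 and 2685 CPM in NT7, with 5 of the 7 lower on day 7. The 9 airway markers, of 10, summed to between 322 and 384 CPM in HT7 and between 304 and 399 CPM in NT7, a sum to which single markers contributed in opposite directions. Of these, SCGB3A2 (175 to 235 CPM in HT7, 30.8 to 105 CPM in NT7), TP63 (log2FC 1.72) and KRT5 (1.99) were higher on day 7. TPPP3 (-1.64), whose locus and counts are shared by 2 entries, SCGB3A1 (-1.95) and DNAI1 (-0.68) were lower. Sums of the 7 fibroblast markers, of 8, overlapped on day 7, at 7782 to 8995 CPM in HT7 and 8153 to 10580 CPM in NT7. The 8 macrophage markers summed to between 1870 and 2438 CPM in HT7 and between 1125 and 1329 CPM in NT7, most of which was CD68, whose locus and counts are shared by 7 entries. Over these 8 markers 3 were higher and 1, MARCO (log2FC -2.19), was lower, with a median log2FC of 0.01. The 6 neutrophil markers summed to 2766, 865 and 1185 CPM in HT7 replicates 1, 2 and 3 and to between 801 and 970 CPM in NT7, with 1 higher and 1 lower. Within HT7 replicate 1 was highest and replicate 2 lowest in the neutrophil and macrophage sums. The keratins, CLDN3 and CLDN7 had the same order. The 3 mesothelial markers summed to between 10.6 and 36.9 CPM in HT7 and between 76.5 and 168 CPM in NT7, where UPK3B was lower (log2FC -3.10) and WT1 (0.56) and LRRN4 (0.50) did not pass the test. These single markers were picked out after their values had been seen. The part of any of these cell types in the changes of the 9 genes was not tested.

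**Figure D5:**
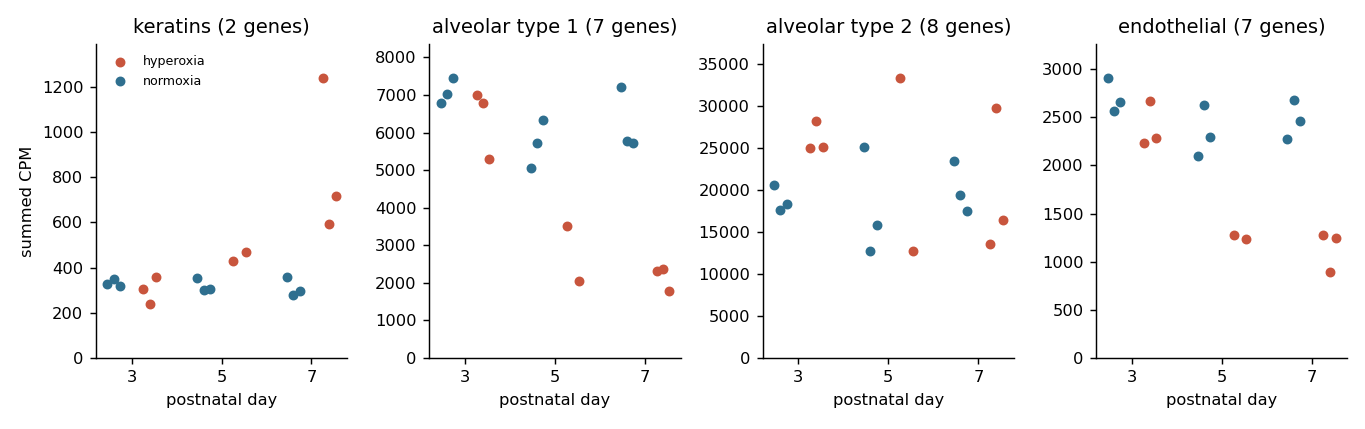
Summed CPM (vertical axes, from 0) of the markers of keratin-bearing epithelium, alveolar type 1 cells, alveolar type 2 cells and endothelium by postnatal day, with 1 point per lung sample, hyperoxia in red and normoxia in blue. On day 7 the keratin sums of hyperoxia lie above those of normoxia, the alveolar type 1 and endothelial sums lie below them, and the alveolar type 2 sums overlap.

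For each of the 9 genes the other genes with the most similar course over the 17 samples were looked up, by the root mean square difference of log2 CPM after each gene was centred on its mean. CLDN7 was closest to VMP1 (0.11), and then to the syndecan gene SDC4 (0.20), whereas the values of CLDN7 themselves spread by 0.81 about their mean. CLDN3 was closest to the lipoprotein lipase gene LPL (0.25) and to the keratin gene KRT7 (0.25), its own spread being 0.62. EPCAM was closest to UGP2 (0.12) and ATP6V0B (0.13), and CDH1 to ACO1 (0.15) and ZFYVE26 (0.17), with spreads of 0.42 and 0.43. Of the genes that fell, OCLN was closest to CCNG2 (0.13) and DDX17 (0.14) with a spread of 0.56, and CLDN18 to APLP2 (0.18) and NR1H3 (0.19) with a spread of 0.46. MARVELD2 was closest to STIM2 (0.10) and PLEKHA1 (0.12), and TJP1 to RNF169 (0.09) and ZNF189 (0.10), with spreads of 0.31 and 0.22. F11R was closest to the locus shared by MAPK3 and GDPD3 (0.12), with a spread of 0.35. None of the 9 genes was among the closest 2 of another, and the distances are a description with no test, over samples that share the same 6 groups.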

How the data were processed

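Poly(A) RNA of 17 lung homogenates was sequenced by the authors as stranded paired-end libraries, and they deposited the raw count of each locus. The submitters' processing notes name FastQC, STAR 2.7.10a and the build OryCun2.0, and the loci carry StringTie labels joined to Ensembl genes. The counting program is not given in the sources used here. Positions are those of the table. Depth was between 13123731 and 18111086 counts per sample, and no sample column repeated another.

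Groups followed the sample titles. Entries were kept by filterByExpr (13142 of 13827) and scaled with TMM factors (0.958 to 1.05), and 6 group means were fitted to all 17 samples with the quasi-likelihood test of edgeR 4.0.16 in R 4.3.3, with Benjamini-Hochberg adjustment over all tested entries and a prior count of 0.125. CPM divide by the sum over tested entries, where the counts of a shared locus enter with each of its genes. Alternatives were DESeq2 1.42.0 (the tool of the study), its size factors, upper quartile factors, library totals, no count filter, 1 entry per locus, only the samples of a day, a replicate block, day as a number, a prior count of 2 and each sample left out. Leaving out HT3 replicate 2 and HT7 replicate 2 together, and the claudin shares, were added after seeing the data. Deviations of samples with the same replicate number from their group means correlated at 0.166, 0.131 and 0.199 on day 3, at 0.264 and 0.141 on day 5 and at 0.174, 0.109 and 0.0695 on day 7. Only day 3 had 3 pairs all above 0.1. The sources do not say what the numbers stand for.

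The 9 genes and all lists were chosen with earlier results of these data known. Named from the lists are up to 4 genes each that were called on day 5 or 7 with the largest log2FC on day 7, beside CLDN4 and ABHD11 for their overlap with CLDN3, and CTNNB1 and single cell type markers, which were named after their values were seen. Of the list with matriptase 1 gene is not reported here, nor is the count over that list. The 2 most similar genes of each of the 9 were named by distance. No sequence is shown, since none was used here.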

Additional observations from a re-analysis of the deposited data

Results flagged for a closer look

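The hyperoxia effect differed between day 7 and day 3 for 6 of the 9 genes, against 20.5% of all tested entries, by the edgeR quasi-likelihood test of the difference with Benjamini-Hochberg adjustment. It was larger on day 7 by a log2FC of 1.64 for CLDN3 (SE 0.42, adjusted p = 0.0142), 1.41 for CLDN7 (SE 0.34, adjusted p = 0.0108), 0.92 for CDH1 (SE 0.26, adjusted p = 0.0243) and 0.80 for EPCAM (SE 0.20, adjusted p = 0.0140). For CLDN18 it was -0.88 (SE 0.30, adjusted p = 0.0489) and for OCLN -0.82 (SE 0.24, adjusted p = 0.0275). Of 12 fits that each left out 1 sample, the call was lost in 10 for CLDN18, in 7 for OCLN and in 4 for CDH1, and that of CLDN18 also with a replicate block. No group has more than 3 samples, so no test for an outlying sample was run on the 9 genes.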

How the results depend on the processing

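On day 7, 144 of 144 alternative fits of the 9 genes kept the direction and the call, and the count of genes called was 9 in each fit that left out a sample (5181 to 6611 of all tested entries). On day 3 DESeq2 called 1 of the 9 (MARVELD2), and 0 to 0 were called when a sample was left out. Of all tested entries, 136 were called on day 3, against 505 with DESeq2, 281 with only the samples of that day, 37 with a replicate block, 47 with HT3 replicate 2 and HT7 replicate 2 left out, and 31 to 116 with 1 sample left out. The block called 0 of the 9 on day 3, 3 on day 5 and 9 on day 7, as without it. Over all tested entries the block called 37, 3333 and 6218 on these days. It ended the call of CLDN18 in the difference between days 7 and 3, where it called 2582 entries. On day 5, 1 to 5 of the 9 and 1158 to 4286 of all tested entries were called with 1 sample left out, and 2412 with only the samples of that day, against 4115. For day 7 minus day 3, 3 to 6 of the 9 and 1702 to 3811 entries were called with 1 sample left out, and CLDN18 also missed the threshold with upper quartile factors, library totals or no count filter. For day 5 minus day 3, 192 entries were called, against 894 with DESeq2, 2 with the replicate block and 2 to 1440 with 1 sample left out, and the share that were higher was 42.7% against 54.3% with library totals. HT7 against HT3 gave 8 to 9 of the 9 and 4654 to 6226 entries, and NT7 against NT3 0 to 0, with 39 entries by DESeq2. Directions turned only in values that were not called, when a sample was left out. These ran from -0.12 to 0.30 for CLDN3 on day 5, and for day 5 minus day 3 from -0.71 to 0.11 for F11R and -0.043 to 0.14 for MARVELD2. For NT7 against NT3 they ran from -0.23 to 0.15 for CLDN3, -0.015 to 0.27 for CLDN7, -0.0090 to 0.16 for CLDN18, -0.15 to 0.070 for CDH1 and -0.17 to 0.057 for EPCAM. The cause was not tested.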
